A study of Mus musculus with 3 samples.

Results

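Aquaporins are membrane channels that let water, and in some members glycerol, cross the cell membrane, and the mouse aquaporin genes were examined here in EpH4-PR cells. The genes were Aqp1, Aqp2, Aqp3, Aqp4, Aqp5, Aqp6, Aqp7, Aqp8, Aqp9 and Aqp11, and every array probe that carried one of these gene names was taken, which gave 15 probes of 10 genes among 41174 probes with 29273 gene names in all. The family was chosen by the measured ratio of Aqp5, which is among the highest on the arrays, so the ratios of its members are described and not tested. EpH4 is a normal mouse mammary epithelial cell line, and EpH4-PR cells are EpH4 cells stably transfected with the A isoform of the progesterone receptor and selected as clones. They were kept in growth medium with FBS and G418, without added progesterone, and harvested before full confluence. On each of 3 arrays the EpH4-PR RNA was labelled with Cy5 and a commercial reference RNA, the Stratagene mouse standard, with Cy3, with no dye swap, so the dye and the RNA cannot be told apart. EpH4-EV arrays were not used here. The log2 ratios therefore set EpH4-PR RNA against the reference RNA, whose makeup is not given in the sources used here, and do not measure an effect of the progesterone receptor.

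Each aquaporin forms a bundle of membrane helices around a narrow pore, and the channels assemble as tetramers in which each subunit has a pore of its own. Aqp1, Aqp2, Aqp4, Aqp5, Aqp6 and Aqp8 belong to the classical group, most of which pass mainly water. Aqp3, Aqp7 and Aqp9 are aquaglyceroporins, which also pass glycerol, and Aqp11 is a distant member found on intracellular membranes. Aqp5 sits in the apical membrane of salivary, lacrimal and airway epithelium, where water follows secreted ions. Aqp1 is the constitutive channel of endothelium, red cells and the kidney proximal tubule, and Aqp2 is the channel that vasopressin moves to the apical membrane of the collecting duct.

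The genes Aqp2, Aqp5 and Aqp6 lie next to each other in this order on the plus strand of chromosome 15. In the RefSeq promoter table for GRCm38.p6, the start of Aqp5 was 11972 bases beyond that of Aqp2, and the start of Aqp6 was 10172 bases beyond that of Aqp5. The table held 11 windows for 9 of the 10 genes and none matched Aqp4. The 250 bases before the start are shown for the adjacent genes, whose ratios on the arrays were far apart, and for Aqp1, the member with the next highest ratio after Aqp5. Each is written from 5′ to 3′ with every CG dinucleotide in capitals.

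Aqp5, chr15:99590778-99591027, plus strand: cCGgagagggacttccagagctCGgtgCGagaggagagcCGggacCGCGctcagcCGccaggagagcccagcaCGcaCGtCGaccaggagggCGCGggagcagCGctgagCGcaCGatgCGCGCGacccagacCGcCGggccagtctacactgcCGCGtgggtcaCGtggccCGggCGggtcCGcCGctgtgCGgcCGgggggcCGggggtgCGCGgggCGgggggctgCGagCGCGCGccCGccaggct
Aqp2, chr15:99578806-99579055, plus strand: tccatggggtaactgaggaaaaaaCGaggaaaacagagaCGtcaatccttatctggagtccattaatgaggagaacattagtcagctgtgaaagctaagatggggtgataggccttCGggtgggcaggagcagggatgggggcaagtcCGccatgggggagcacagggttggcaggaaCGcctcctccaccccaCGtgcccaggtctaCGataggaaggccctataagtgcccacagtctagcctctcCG
Aqp6, chr15:99600950-99601199, plus strand: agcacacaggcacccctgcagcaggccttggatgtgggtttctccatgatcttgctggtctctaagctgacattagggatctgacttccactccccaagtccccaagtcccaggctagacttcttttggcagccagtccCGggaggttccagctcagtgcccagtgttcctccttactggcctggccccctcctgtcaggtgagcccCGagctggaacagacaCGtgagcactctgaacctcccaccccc
Aqp1, chr6:55336049-55336298, plus strand: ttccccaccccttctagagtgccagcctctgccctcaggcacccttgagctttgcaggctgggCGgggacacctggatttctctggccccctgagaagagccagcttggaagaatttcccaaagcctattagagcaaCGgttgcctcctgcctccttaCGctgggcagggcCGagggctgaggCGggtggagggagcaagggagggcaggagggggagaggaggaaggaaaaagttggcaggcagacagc

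The Aqp5 window held 38 CG dinucleotides and had a GC content of 78.4%. Its neighbours Aqp2 and Aqp6 held 8 and 3 CG dinucleotides at a GC content of 55.6% and 59.6%, and Aqp1 held 5 at 62.0%. Over all 32851 windows of 27025 genes the median was 6 CG dinucleotides (interquartile range 2 to 16) and a GC content of 52.4%, and the CG count of Aqp5 lay at the 98.1 percentile. Among the other members, Aqp11 held 23 CG dinucleotides, Aqp3 14 and Aqp8 5, while the windows of Aqp7 held 0 and 2 and those of Aqp9 held 1 and 3. The letters GGGCGG (a GC box), counted on both strands and overlapping some of the capitals, were found 2 times in the Aqp5 window and 1 time each in those of Aqp1 and Aqp3, against 32.7% of all windows with at least 1. TATAAA was found in the window of Aqp3 only among the members, and in 12.4% of all windows, and CCAAT was found in none of the members' windows and in 33.8% of all windows. These counts describe the letters of the windows and were not compared with the array ratios by a test.

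On the arrays the median Cy5 intensity over probes was 93.8 to 113 and that of Cy3 was 108 to 142. Dim spots have a floor that is not set by the gene: the 314 negative control spots had a median of 57.3 to 74.1 in Cy5 and 91.8 to 121 in Cy3, against a local background of 39 to 43. For this reason the 95th percentile of the negative control spots on each array (62.9 to 87.4 in Cy5, 107 to 168 in Cy3) was used as a second limit beside the flag of the scanner software for a signal well above background, which 46.5% to 53.5% of the negative control spots themselves carried in Cy3. The log2 ratios of all probes correlated between arrays at 0.923 to 0.952 (Pearson r across probes, which are not independent replicates). The progesterone receptor gene Pgr had 2 probes, each well above background in Cy5 on 1 of 3 arrays, with log2 ratios of −0.11 ± 0.22 and −0.19 ± 0.08 (SD, n = 3), so these probes do not bear out the transfected receptor in the arrays labelled EpH4-PR. Whether the probes match the sequence of the transfected receptor is not given in the sources used here. As a check of the labelled epithelial cell type, luminal epithelial markers had 11 of 17 probes higher in EpH4-PR RNA and 1 lower, and mesenchymal markers had 0 of 15 higher and 8 lower, against 2.26% higher and 3.83% lower among all probes.

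Of the 15 aquaporin probes, 13 were well above background in Cy5 on all 3 arrays, against 68.9% of all probes, and 12 were above the 95th percentile of the negative control spots on all 3 arrays, against 66.8%. At the stricter limit of 2 times that percentile on every array, 5 of 15 probes remained, against 34.6% of all probes. These were the probes of Aqp5, Aqp1, Aqp2, Aqp8 and Aqp3, each the only probe of its gene. The other 10 probes, of Aqp4, Aqp6, Aqp7, Aqp9 and Aqp11, had Cy5 intensities of 58.5 to 114, at most 1.52 times that percentile, and none was above it in the reference channel on any array. At this stricter limit 5 genes had a signal clear of the negative controls and 5 were at or near them. The 5 of 15 probes are close to the share of all probes, so nothing is read from it about the family. At the 95th percentile itself, all 10 genes had at least 1 probe above it in Cy5 on all 3 arrays. The multiple of 2 was chosen after the values were seen.

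**Figure D1:**
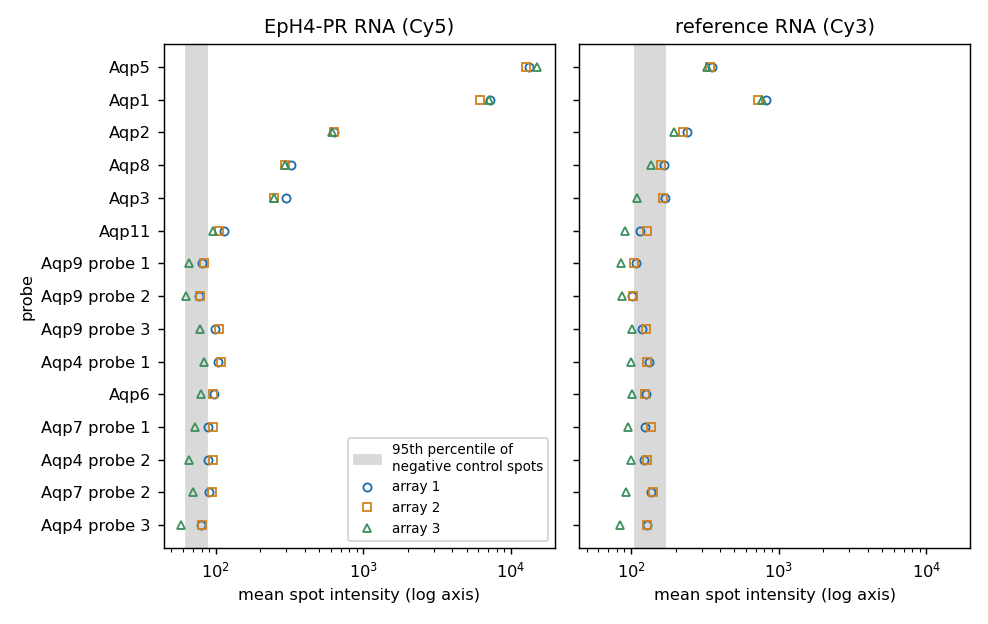
Mean spot intensity of each aquaporin probe of EpH4-PR RNA (Cy5, left) and the reference channel (Cy3, right) on a log axis, with 1 symbol per array. The grey band spans the 95th percentile of the negative control spots on the 3 arrays. In Cy5 the probes of Aqp5, Aqp1, Aqp2, Aqp8 and Aqp3 lie to the right of the band and the other 10 lie in it or close to it, with Cy5 intensities of 58.5 to 114.

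Aqp5 had the highest EpH4-PR signal of the family relative to its own reference signal. Its Cy5 intensity was 13259, 12536 and 15069 on arrays 1, 2 and 3, and its Cy3 intensity was 355, 345 and 324. The EpH4-PR signal was high on every array, at 143 to 239 times the 95th percentile of the negative control spots, and was not saturated, while the reference signal was low but above its own limit on every array, at 2.05 to 3.04 times the percentile. The log2 ratio was 3.86, 3.87 and 4.11 on the 3 arrays, with a mean of 3.95 ± 0.14 (SD, n = 3), a ratio of 15.4-fold over the reference RNA. Array 3 was somewhat above the others, and no array came near those of any other member.

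Among the 28375 probes well above background in Cy5 on all arrays, the ratio of Aqp5 ranked 5. The 4 probes above it were those of Mal2, a raft protein of apical transport in polarized epithelium (4.69 ± 0.03), Cdh1, which encodes E-cadherin (4.29 ± 0.10), the homeobox gene Rhox5 (4.24 ± 0.08, saturated in Cy5 on 2 of 3 arrays) and Krt7, a keratin of simple epithelium (3.99 ± 0.08). The 4 below it were Myh14, a nonmuscle myosin heavy chain (3.66 ± 0.13), the tight junction claudin Cldn3 (3.49 ± 0.13), Tmem54 (3.48 ± 0.10) and Lsr, a component of tricellular junctions (3.48 ± 0.08), each as mean ± SD over 3 arrays. Aqp5 and Krt7 differed by less than the SD of Aqp5, so the order of these neighbours is not resolved. The rank depended on the processing: it was 10 with a normexp offset of 0 and 20 with the log ratio of the scanner software.

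Aqp1 had the next highest ratio of the family. Its Cy5 intensity was 7147, 6145 and 7086 on arrays 1, 2 and 3, and its Cy3 intensity was 815, 724 and 771. Both channels were clear of the negative control spots on every array, the EpH4-PR channel at 70.3 to 113 times the 95th percentile. The log2 ratio was 1.64, 1.66 and 1.70, a mean of 1.67 ± 0.03 (SD, n = 3) or 3.18-fold over the reference RNA. The arrays did not overlap with those of Aqp5 or of any other member.

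Aqp1 is known from endothelium and red cells, and the markers of these cells were read beside it. Of 7 endothelial probes 1, Kdr (0.21 ± 0.16, SD, n = 3), was above the 95th percentile of the negative control spots in Cy5 on all arrays. Of 5 erythroid probes 2 were above it, against 66.8% of all probes. Neither list had a probe called higher or lower than the reference RNA, against 2.26% higher and 3.83% lower among all probes. The endothelial adhesion molecule Pecam1 was above that percentile on 1 of 3 arrays, with a log2 ratio of 0.01 ± 0.05 (SD, n = 3). EpH4-PR cells are a selected epithelial line and the makeup of the reference RNA is not given, so these marker ratios do not measure numbers of cells.

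Aqp2 and Aqp8 had a moderate signal and a ratio somewhat above that of the reference RNA on every array. The Cy5 intensity of Aqp2 was 635, 630 and 615 on arrays 1, 2 and 3, against Cy3 intensities of 240, 224 and 195, and its log2 ratio was 0.59, 0.71 and 0.69 (mean 0.67 ± 0.06, SD, n = 3; 1.59-fold). Aqp8, a channel of exocrine and intestinal epithelium that also passes hydrogen peroxide, had Cy5 intensities of 323, 295 and 292 and Cy3 intensities of 166, 159 and 136, with log2 ratios of 0.62, 0.57 and 0.47 (mean 0.55 ± 0.07; 1.47-fold). Both EpH4-PR signals were clear of the negative control spots on all arrays, at 7.21 to 9.77 times the 95th percentile for Aqp2 and 3.38 to 4.64 times for Aqp8. In the reference channel Aqp2 was above that percentile on all 3 arrays and Aqp8 on 2 of 3.

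Aqp3 was the only aquaglyceroporin with a signal clear of the negative control spots, and it was the most variable of the 5. Aqp3 sits in the basolateral membrane of epithelia, including kidney collecting duct and epidermis. Its Cy5 intensity was 300, 248 and 247 on arrays 1, 2 and 3, and its Cy3 intensity was 169, 163 and 110. The log2 ratio was 0.47, 0.32 and 0.79, a mean of 0.53 ± 0.24 (SD, n = 3) or 1.44-fold. The highest ratio came from array 3, where the reference intensity was lowest, and the reference signal stayed at 0.971 to 1.05 times the 95th percentile of the negative control spots, above it on 2 of 3 arrays. Aqp2, Aqp8 and Aqp3 did not differ beyond their spread, since their arrays overlapped (0.59 to 0.71, 0.47 to 0.62 and 0.32 to 0.79).

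Aqp4, the water channel of astrocyte end feet, had 3 probes, and none gave more than a weak signal. Their mean log2 ratios were 0.12 ± 0.08, −0.00058 ± 0.14 and −0.13 ± 0.12 (SD, n = 3). The third was not well above background in Cy5 on any array and was in Cy3 on 2 of 3, with neither channel above the negative controls' 95th percentile, so no fold is given for it. Aqp6, an anion-permeable channel of intracellular vesicles in the collecting duct, had Cy5 intensities of 97.5, 95.9 and 79.7 and log2 ratios of 0.12, 0.14 and −0.02 (mean 0.08 ± 0.09). Of these 4 probes the first of Aqp4 was above 0 on every array (0.09, 0.21 and 0.05), and the others changed sign between arrays.

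The glycerol channels Aqp7, of adipocytes, and Aqp9, of hepatocytes, were also dim. The 2 probes of Aqp7 had log2 ratios of 0.02 ± 0.12 and −0.12 ± 0.21 (SD, n = 3), with a sign that differed between arrays for both. The 3 probes of Aqp9 had ratios of 0.26 ± 0.06, 0.18 ± 0.09 and 0.16 ± 0.18. The first was well above background in Cy5 on all of the arrays and in Cy3 on none, but above the negative controls' 95th percentile in Cy5 on 1 of 3 arrays, and the second was well above background in neither channel, so no fold is given for either. The first Aqp9 probe had a log2 ratio of 1.40 with a normexp offset of 0, 1.26 by the scanner software's log ratio and 0.03 with median centring, and the second had 1.25, 1.25 and −0.03.

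Aqp11, an intracellular member whose loss leads to polycystic kidneys in mice, had Cy5 intensities of 114, 105 and 95.4 on arrays 1, 2 and 3 and Cy3 intensities of 116, 128 and 90.2. Its log2 ratios were 0.58, 0.16 and 0.43, a mean of 0.39 ± 0.21 (SD, n = 3), above 0 on all arrays but with a reference signal at the level of the negative control spots. With a normexp offset of 0 the mean was 1.1.

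Across the family, 2 of 15 probes (Aqp5 and Aqp1) had a mean log2 ratio of at least 1 and 0 had −1 or lower. The call used for all probes, limma with Benjamini-Hochberg adjustment over all probes and a log2 ratio of at least 1, was met in the higher direction by 932 probes, or 2.26% of all, and in the lower direction by 1578, or 3.83%. Because Aqp5 was selected on this ratio, nothing is read from the share of the family. The median log2 ratio of the 15 probes was 0.18 with a range of −0.13 to 3.95, beside a median of −0.01 over all probes. The ratio was above 0 on all 3 arrays for 9 probes, below 0 on all 3 for 0 and of mixed sign for 6. The 9 include Aqp5 and dim probes of Aqp4, Aqp9 and Aqp11, whose reference signal was above the negative controls' 95th percentile on 0 of 3 arrays. No share of all probes is given for these signs, and nothing is read from them. Around the limit of 1 the nearest members were Aqp1 on the inside at 1.67 and Aqp2 on the outside at 0.67.

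**Figure D2:**
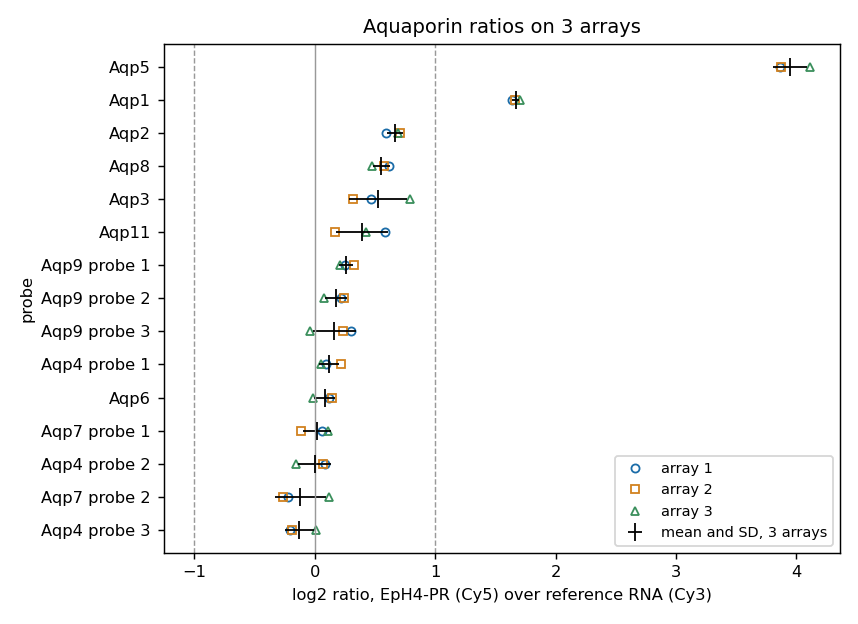
Log2 ratio of EpH4-PR RNA (Cy5) over reference RNA (Cy3) for the 15 aquaporin probes, with 1 symbol per array and a cross for the mean with a bar of 1 SD over 3 arrays. Dashed lines mark ratios of −1 and 1, and the solid grey line marks 0. Aqp5 (3.95) and Aqp1 (1.67) lie beyond 1 and the remaining 13 probes lie between −0.13 and 0.67.

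Normalization within arrays changed the size of these ratios. With median centring in place of loess the mean log2 ratio was 5.33 for Aqp5, 3.06 for Aqp1, 1.63 for Aqp2, 1.22 for Aqp8 and 1.11 for Aqp3, so that 5 members in place of 2 were past a ratio of 1. Under that setting 7031 of all probes were called higher and 708 lower, in place of 932 and 1578. Aqp5 kept the highest and Aqp1 the next highest ratio of these 5 under each alternative. The order of Aqp2, Aqp8 and Aqp3 also changed, Aqp3 being the highest of the 3 with the scanner software's log ratio (1.36, against 0.85 for Aqp2 and 0.76 for Aqp8). The sign of the mean ratio was not fixed for Aqp6, the second Aqp9 probe and the first Aqp7 probe, which were −0.08, −0.03 and −0.18 with median centring and above 0 in the values given here, and the second Aqp4 probe ranged from −0.44 to 0.08 over the alternatives.

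**Figure D3:**
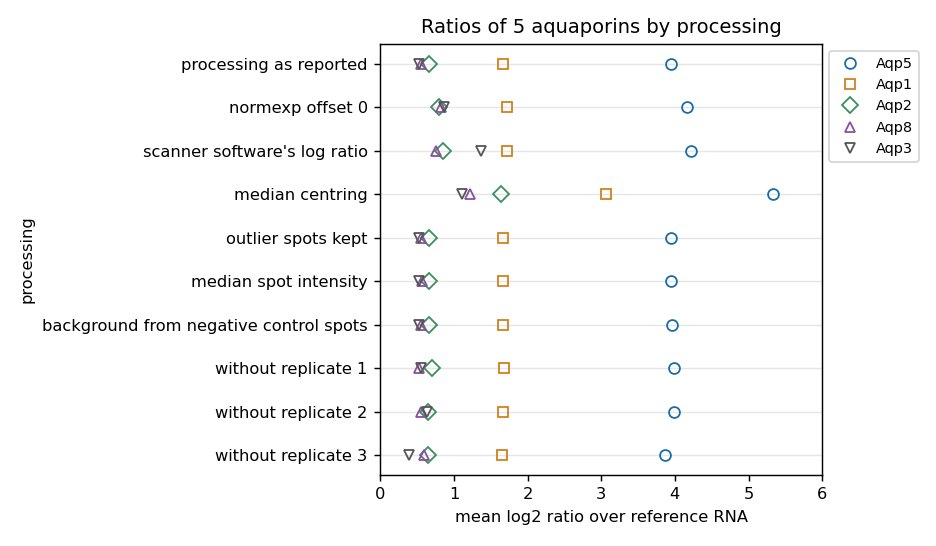
Mean log2 ratio over reference RNA of the 5 aquaporins with a signal clear of the negative controls (horizontal axis) under each way of processing (rows), with 1 symbol per gene. Aqp5 lies between 3.87 and 5.33 and Aqp1 between 1.65 and 3.06 over all rows, with the highest values under median centring, while Aqp2, Aqp8 and Aqp3 change order.

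The genes beside the Aqp2, Aqp5 and Aqp6 cluster on chromosome 15 were examined to set the ratio of Aqp5 in its place. The 3 nearest protein-coding genes on each side were Nckap5l, Bcdin3d and Faim2 before Aqp2 and Racgap1, Asic1 and Smarcd1 after Aqp6. Their 11 probes had mean log2 ratios of −0.50 to 0.72, and 0 were called higher and 0 lower by limma with Benjamini-Hochberg adjustment over all probes. Without the limit on size, 4 of the 11 had an adjusted p under 0.05 and 5 an unadjusted p under 0.05 by limma. By the methods' t-test, here a 1-sample test of the ratios against 0, 5 had a p of 0.05 or less. The share of all probes without the limit on size is not given here, so nothing further is read from these counts. Both extremes came from genes whose probes disagreed: Asic1, an acid-sensing ion channel, read 0.06 ± 0.13 (n = 2, since 1 spot was left out as an outlier) and −0.50 ± 0.13 (n = 3), and Racgap1, a regulator of cytokinesis, read 0.72 ± 0.26 and −0.41 ± 0.03 (SD, n = 3). Among these probes the high ratio was seen for Aqp5 only, with Aqp2 at 0.67 (1.63 with median centring) and Aqp6 at 0.08. Some of the probes were too dim for a ratio to be informative. In Cy5, 1 probe of Nckap5l was above the negative controls' 95th percentile on 0 of 3 arrays. The Faim2 probe at 0.16 and the Asic1 probe at −0.50 were above it on 1 of 3. Aqp6 had a reference signal above its percentile on 0 of 3 arrays.

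**Figure D4:**
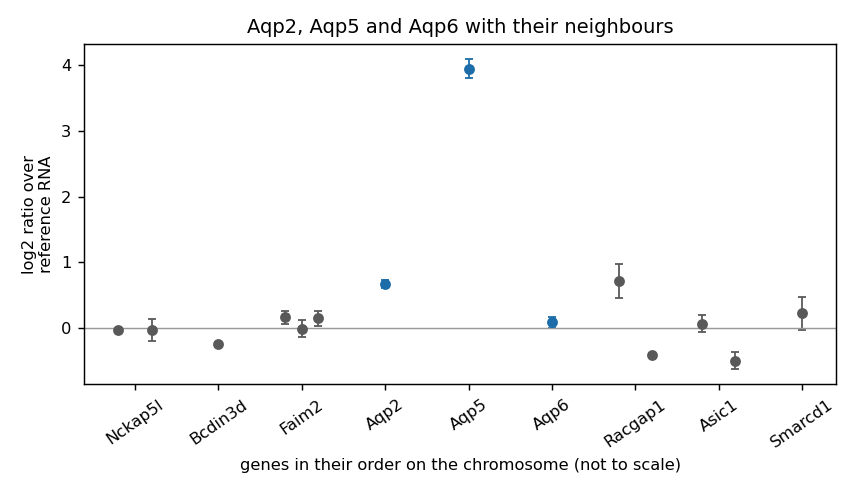
Mean log2 ratio over reference RNA, with bars of 1 SD over arrays, for the probes of Aqp2, Aqp5 and Aqp6 (blue) and of the 3 nearest protein-coding genes on each side (grey), in chromosome order and not to scale. Aqp5 lies at 3.95 and all other probes lie between −0.50 and 0.72.

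The family has members outside the gene names examined, and 2 of these were on the array. Mip, the lens aquaporin, had a log2 ratio of −0.02 ± 0.10 and was above the 95th percentile of the negative control spots in Cy5 on 1 of 3 arrays, and the pancreatic member Aqp12 had 0.16 ± 0.20 and was above it on all 3 (SD, n = 3). Neither was called.

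Genes of vasopressin signalling, cAMP and vesicle trafficking, through which Aqp2 and other aquaporins are moved to the membrane, were mostly within 1 log2 unit of the reference RNA. The median log2 ratio was 0.02. Of 42 probes of 19 genes, 4 were called higher (9.52%) and 0 lower, against 2.26% and 3.83% of all probes. The 4 were Ezr, which encodes the membrane to actin linker ezrin (1.37 ± 0.07, adjusted p = 4.33e-05 by limma with Benjamini-Hochberg adjustment), 2 probes of the apical recycling motor Myo5b (1.28 ± 0.15 and 1.22 ± 0.18, with a reference signal above the negative controls' 95th percentile on 0 of 3 arrays) and 1 of Sipa1l1, which encodes a Rap GTPase-activating protein (1.16 ± 0.01). Probes of Sipa1l1 and Myo5b did not move as one, since 2 further probes of Sipa1l1 read −0.31 and −0.21 and 2 of Myo5b −0.07 and 0.26. The vasopressin receptor of the collecting duct, Avpr2, read −0.06 ± 0.17 and was above the 95th percentile of the negative control spots in Cy5 on all arrays, while its vascular relative Avpr1a was above it on 0 of 3.

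Genes of the osmotic response and of cell volume held calls in both directions. The median log2 ratio was 0.18. Of 36 probes of 19 genes, 5 were higher (13.9%) and 3 lower (8.33%), against 2.26% and 3.83% of all probes. The higher probes were those of Akr1b3, the aldose reductase that makes sorbitol (2.60 ± 0.11, adjusted p = 1.83e-05, and 2.54 ± 0.09, while another, dim probe read −0.04), Trpv4, a cation channel gated by cell swelling (2.55 ± 0.26, adjusted p = 6.02e-05), and Slc6a6, the taurine transporter (2.12 ± 0.11 and 1.32 ± 0.04). The lower ones were Lrrc8a, the required subunit of the volume-regulated anion channel (−2.98 ± 0.17, adjusted p = 2.25e-05), Slc12a4, a potassium-chloride cotransporter (−2.56 ± 0.09, adjusted p = 1.80e-05), and the kinase Sgk1 (−1.09 ± 0.14), all by limma with Benjamini-Hochberg adjustment over all probes. The 5 probes of Nfat5, the transcription factor of the hypertonic response, read −0.59 to 0.16 and none was called.

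Genes of ion transport in fluid secretion, the process that Aqp5 serves in glands, had a median log2 ratio of 0.10. Of their 17 probes 3 were higher (17.6%) and 0 lower, against 2.26% and 3.83% of all probes. Among them Ano1, the calcium-activated chloride channel of secretory epithelium, was higher by 1.67 ± 0.05 on the log2 scale (SD, n = 3; adjusted p = 2.59e-05 by limma with Benjamini-Hochberg adjustment), with a reference signal above the negative control spots' 95th percentile on 1 of 3 arrays. Slc12a2, the cotransporter that loads chloride into secretory cells, read 0.45 ± 0.07, the Cftr probe that was above background 0.44 ± 0.13 and the potassium channel Kcnn4 0.29 ± 0.04 (SD, n = 3), all below the limit of the call. That Cftr probe had a reference signal above the negative controls' 95th percentile on 0 of 3 arrays. The other Cftr probe, not well above background, read −0.14. Others of the list read below 0 without a call, among them Atp1b1 (−0.72 ± 0.23) and Itpr3 (−0.61 ± 0.03).

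For the glycerol channels, 1 of 25 probes of glycerol handling genes was higher (4%) and 1 lower (4%), with a median of 0.08. Among all probes 2.26% were higher and 3.83% lower, so nothing is read from the counts of this list. They depended on the processing, with 6 higher and 3 lower at a normexp offset of 0 and 8 and 4 by the log ratio of the scanner software. Under median centring they were 6 and 0, and the lower call of Lpl ended. Over all probes the counts changed as well, from 932 higher and 1578 lower to 3125 and 3905, 3616 and 3887, and 7031 and 708 in turn. The triglyceride lipase Pnpla2 read 1.03 ± 0.06 (adjusted p = 7.51e-05) by the called probe and 0.70 by the other, and lipoprotein lipase, Lpl, read −1.65 ± 0.11 (adjusted p = 4.21e-05) by the called probe and −0.31 by the other, by limma with Benjamini-Hochberg adjustment. Adipocyte and hepatocyte markers, read beside Aqp7 and Aqp9, had 0 of 9 and 0 of 6 probes called, against the same shares of all probes. For Aqp4, the list of the dystrophin complex that anchors it had a median of 0.07. Of its 25 probes 2 were higher (8%) and 1 lower (4%), against 2.26% and 3.83% of all probes. Among the higher was 1 of 6 probes of Utrn, which encodes utrophin (1.05 ± 0.15, the others −0.65 to 0.43), and the lower was the sarcoglycan Sgcb (−1.08 ± 0.04, its other probe −0.64). Of 11 astrocyte marker probes 0 were higher and 1, Aldoc, was lower (−1.48 ± 0.05), against the same shares of all probes. With median centring the lower calls of Sgcb and Aldoc ended too.

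**Figure D5:**
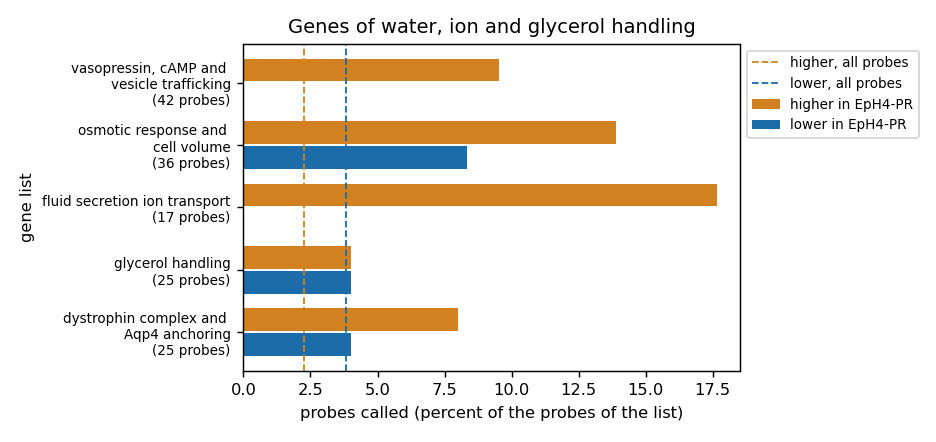
Percent of the probes of 5 lists of water, ion and glycerol handling genes called higher (orange) or lower (blue) in EpH4-PR RNA than in the reference, with dashed lines at the share of all probes (2.26% higher, 3.83% lower). These 5 lists hold 17 to 42 probes, and the highest share among them is that of fluid secretion genes, 3 of 17 probes higher.

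Aqp5, Aqp2 and Aqp3 are also known from other epithelia, and the markers of those were read beside them. Of 13 probes of lung and salivary secretory epithelium 0 were called, with a median log2 ratio of −0.16. In Cy5, 5 were above the 95th percentile of the negative control spots on all arrays, against 66.8% of all probes. Among these, 1 probe each of the salivary markers Amy1 (−0.11) and Bhlha15 (−0.0018) was above it in Cy3 on all arrays too. The other probe of each (−0.33 and −0.40) was above it in Cy5 on 1 of 3 arrays. Of 5 collecting duct probes 0 were called and 1, that of Avpr2, was above the Cy5 percentile on all arrays. Among all probes 2.26% were called higher and 3.83% lower. In each list with 0 calls in a direction, no probe passed the limit on size in that direction. Any test with that limit would thus give 0 calls, so the choice of test adds nothing here. Other processing gave calls in some of these lists. The lung and salivary list had 1 probe higher and 3 lower at a normexp offset of 0, and 1 and 5 by the scanner software's log ratio. Under both settings the adipocyte list had 4 lower and the hepatocyte, vasopressin and fluid secretion lists 1 lower each. The endothelial list had 1 lower by the scanner software's log ratio. Without the limit on size, 7 of the 13 lung and salivary probes, 1 of the 7 endothelial, 4 of the 9 adipocyte and 2 of the 6 hepatocyte probes had an adjusted p under 0.05 by limma with Benjamini-Hochberg adjustment. The share of all probes at that rule is not given here, so nothing further is read from these counts. The luminal markers were led by Cdh1 (4.29 ± 0.10) and Krt7 (3.99 ± 0.08), both beside Aqp5 in the order of all ratios. Cdh1 had a reference signal above the negative controls' 95th percentile on 1 of 3 arrays. The luminal keratin Krt19 was lower than in the reference RNA (−2.62 ± 0.18, adjusted p = 2.97e-05 by limma with Benjamini-Hochberg adjustment). Elf3 (0.25), Elf5 (0.0024, not well above background in Cy5 on any array), Prlr (−0.09) and Kit (−0.20) were not called. Esr1 had 1 probe called higher (1.12) and 1 not called (−0.50). Basal markers had 1 of 11 probes higher, Krt14 (2.08 ± 0.13), and 1 lower, 1 of 4 Acta2 probes (−2.01 ± 0.15). Among all probes 2.26% were higher and 3.83% lower. On the lower side were leukocyte genes, 4 of 11 probes, and mesenchymal genes, 8 of 15 probes. Ptprc had 1 probe that was not well above background in Cy5 on any array and at least 19.8-fold lower, another at −1.40 that was above background on all 3 and a dim one at −0.19. Lyz2 had probes at −3.41 ± 0.18 and −0.24, Vim at −6.51 ± 0.11 and −0.14, and Col3a1 at −5.10 ± 0.10, −0.23 and −0.14 (SD, n = 3). The Lyz2, Vim and Col3a1 probes near 0 had a reference signal above the negative controls' 95th percentile on 0 of 3 arrays. Their ratios are thus limited by the floor, while the lower probes of these genes were above that percentile in the reference channel on all 3 arrays. The Col3a1 probe at −0.14 was above the Cy5 percentile on all 3 arrays. Why the probes of these genes disagreed was not tested.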

How the data were processed

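EpH4-PR RNA was hybridised to 3 Agilent whole mouse genome arrays, numbered as replicates in the labels. Whether they came from separate cultures is not stated in the sources used here, so p-values measure only the spread between these arrays. The files the authors deposited are scanner output (Agilent Feature Extraction 8.1.1.1, per the file headers), with a spot intensity and a local background intensity in both channels, quality flags and the log10 ratio of the channels. The deposited flags and gene names of the authors' files (other columns) were used as given. A further deposited table of fold changes and p-values holds the authors' own comparison between 2 sides that its header does not name and was not used.

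Mean spot intensities were corrected for local background by normexp (offset 50) and normalized by loess within each array in limma 3.58.1 (R 4.3.3). Control spots were left out after the correction and had weight 0 in loess, and outlier spots (150, 18 and 3 of 43790) were removed. Log2 ratios were averaged over the spots of a probe, with no averaging over probes of a gene. The test was lmFit and eBayes against a ratio of 0 over all 41174 probes, and a call needed an absolute log2 ratio of at least 1 and a Benjamini-Hochberg adjusted p under 0.05. For a probe not well above background in Cy5 on any array the bound was taken from the higher of the probe's own signal and the lowest signal of probes well above background on each array. Bounds come from single-channel values and are open to dye bias. Precision is limited by the number of arrays. The fit was tested on simulated data.

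Symbols were updated by accession through the RefSeq gene table of GRCm38.p6, which matched 21445 of the 22572 probes with a RefSeq transcript accession, and promoter sequences came from the RefSeq promoter table of the same assembly; the array files name no genome build. Named genes were all aquaporins, up to 2 called probes with the highest and 2 with the lowest ratio of each list among those well above background in the higher channel, the 3 nearest protein-coding genes on each side of the aquaporin cluster, and the 4 probes on each side of Aqp5 in rank. Further genes of the lists (Sipa1l1, Slc6a6, Sgk1, Nfat5, Avpr1a, Avpr2, Slc12a2, Cftr, Kcnn4, Atp1b1, Itpr3, Mip, Aqp12, Pecam1, Kdr, Amy1, Bhlha15, Elf3, Elf5, Esr1, Prlr and Kit) were named after their values were seen. Some genes that this rule names are not reported here. The members and lists were chosen with earlier results of these data known. Alternatives covered the background correction, the scanner software's log ratio, median centring, outlier spots, median intensities, each array left out, the methods' t-test, a filter on dim probes, an intensity trend and other detection rules.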

Additional observations from a re-analysis of the deposited data

How the results depend on the processing

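The log2 ratio of Aqp5 ranged from 3.87 to 3.99 when any 1 array was left out, and was 4.16 under a normexp offset of 0, 4.22 by the log ratio of the scanner software and 5.33 under median centring. The calls over all probes (932 higher and 1578 lower) became 3125 and 3905 under offset 0, 3616 and 3887 by the log ratio of the scanner software, and 7031 and 708 under median centring. The calls over the listed genes (27 higher and 20 lower) became 43 and 39, 44 and 42, and 56 higher and 14 lower under the same 3 settings. The cause was not tested. With each array left out the counts were 933 to 953 higher and 1585 to 1605 lower over all probes, and 26 to 28 and 20 to 21 over the lists. The dystrophin complex list had 1 probe higher in place of 2 without array 2. With outlier spots kept, median intensities, a filter on dim probes, an intensity trend, the methods' t-test (929 higher and 1577 lower, or 897 and 1547 after Benjamini-Hochberg) or a background taken from negative control spots (chosen after seeing the data), these counts and the ratio of Aqp5, where the setting applies, stayed within 1.5 times or 1 SD of the reported value. The aquaporin probes detected in Cy5 on all arrays numbered 12 to 15 under the other detection rules (13 as reported). No paired analysis was possible because the arrays hold 1 group. Under offset 0, the log ratio of the scanner software and median centring in turn, probes called higher were 8, 8 and 11 for the vasopressin list (4 as reported), 7, 6 and 15 for the osmotic list (5), 4, 4 and 7 for the fluid secretion list (3) and 5, 5 and 4 for the dystrophin list (2). The ratios of the 10 dim aquaporin probes are limited by their signal over background and by the spread between arrays.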
